A study of Schmidtea mediterranea with 96 samples.

Results

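The step from 3 to 6 hours after a wound was examined in regenerating fragments of the freshwater planarian Schmidtea mediterranea, a flatworm that regrows a complete body from a small piece of tissue. It was taken as the 4 libraries collected at 6 hr against the 4 collected at 3 hr after amputation, which are 8 of the 96 libraries of the series and 8 of the 68 that follow regeneration over 17 times. The fragments were small pieces cut from one side of the animal and collected whole, and the libraries were made from polyA RNA. The animals were wild type, with no treatment other than amputation in the labels, and had been starved for 7 days or more before use. The growth notes name asexual CIW4 animals and sexual S2F8 animals without saying which gave the fragments, and they do not say how many fragments entered a library. The other libraries used for comparison were from wild-type animals too: fragments at 0, 1, 9 and 12 hr and later, sorted X1, X2 and Xins cells (3 libraries each), cells sorted by their level of PIWI-1 protein (4 libraries each of high, low and negative), and whole animals either untreated or 1 day after lethal irradiation (3 libraries each).

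Planarian wounds close by muscle contraction and are covered by epidermis, and the surrounding tissue switches on wound-response genes in epidermis, muscle and stem cells. An early set of these genes is transcribed from existing factors, and later sets follow while stem cells, called neoblasts, divide and migrate toward the wound. X1 cells are cycling neoblasts with replicated DNA, X2 cells are neoblasts with less DNA together with young progeny, and Xins cells are the mainly differentiated cells that irradiation spares. PIWI-1 protein marks neoblasts and remains for a while in the cells they give rise to.

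Every value is given for a transcript identifier, because no source used here pairs the identifiers with gene names, so no gene function is attached to a transcript and no sequence is shown. Levels are FPKM (reads per kilobase of transcript, scaled to a fixed library total). Whole reads recovered from the steps of these values gave library totals of 13.97 to 17.05 M reads at 3 hr and 14.99 to 17.10 M at 6 hr, and 1 read on a transcript of 1 kb was worth 0.0585 to 0.0716 FPKM. The 3 hr libraries stood apart from one another in ways the 6 hr libraries did not. Replicate 5 at 3 hr had 18741 transcripts at 1 FPKM or more, against 16393 to 16862 in the other 3. Replicate 1 at 3 hr held 7 of the 29 transcripts called at this step at more than 10 times their level in any other 3 hr library. Results that rest on these libraries are given with and without them. The labels do not say whether libraries of one time came from separate groups of animals, so the p-values cover only library-to-library spread, which may be technical, and in whole fragments fewer cells of a type and less RNA per cell cannot be told apart.

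Of 24546 transcripts tested, 11 were higher at 6 hr (0.0448%) and 18 were lower (0.0733%), with a Benjamini-Hochberg adjusted p under 0.05 in limma and a log2 difference of at least 1 on the log2(FPKM + 1) scale. This scale understates the change of transcripts near 0: with a pseudocount of 0.1 FPKM the calls were 42 higher and 437 lower, and with limma voom on recovered reads 25 higher and 166 lower. The called differences reached 1.99 among the rising transcripts and -3.59 among the falling ones, and the smallest had a size of 1.01. The transcript at -3.59 was led by replicate 1 at 3 hr, and it stood at -1.60 without that library and at -0.86, not called, without replicates 1 and 5. The largest size that passed the adjusted p without reaching the size threshold was 0.997, and 38 transcripts reached the size without passing the adjusted p. At any size, 316 transcripts were higher (1.29%) and 891 lower (3.63%). The split depended on scaling: with median-ratio scaling of the libraries, 25 transcripts were called higher and 20 lower, and at any size 820 were higher and 405 lower. The median difference of all tested transcripts was -0.09 as deposited and -0.007 with that scaling.

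**Figure D1:**
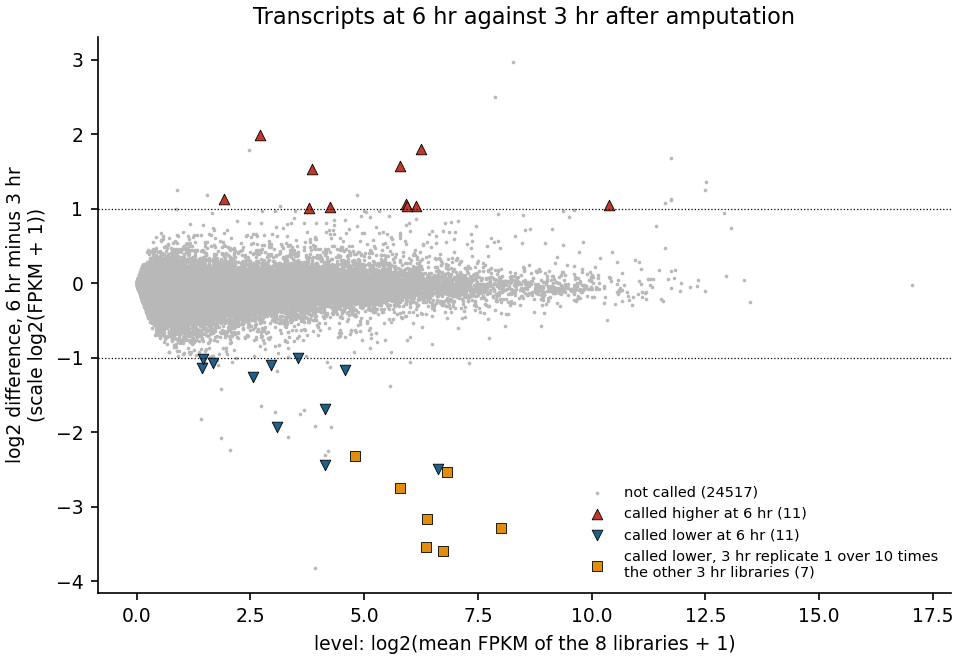
Log2 difference between 6 hr and 3 hr (means of 4 libraries each, scale log2(FPKM + 1)) against the level of each tested transcript, taken as log2 of the mean FPKM of the 8 libraries plus 1. Red triangles are the 11 transcripts called higher, blue triangles and orange squares the 18 called lower, the 7 squares those led by 1 library at 3 hr, and dotted lines mark a log2 difference of 1 in each direction. Nearly all tested transcripts lie between the dotted lines.

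The largest rise was that of SMED30001146. Its level at 3 hr was 1.74, 1.39, 2.02 and 1.40 FPKM, and at 6 hr it was 11.2, 8.03, 9.02 and 9.73 FPKM. Every 6 hr library lay above every 3 hr library, by a log2 difference of 1.99 ± 0.11 (SE, limma adjusted p = 1.77e-20). The 3 hr values came from 33 to 51 reads and the 6 hr values from 191 to 249 reads. At 0 and 1 hr its mean level was 1.09 and 1.26 FPKM, and at 9 and 12 hr 11.3 and 10.0 FPKM, so its low levels lay on one side of this step and its high levels on the other. It had returned to 2.58 FPKM at 48 hr.

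SMED30033583 rose next most. Its levels were 36.8, 28.7, 34.4 and 31.0 FPKM at 3 hr and 138, 87.8, 122 and 125 FPKM at 6 hr, again with no overlap, a log2 difference of 1.81 ± 0.16 (SE, limma adjusted p = 9.2e-13). This transcript was rising before the step and kept rising after it. Its mean was 18.4 FPKM at 0 hr and 24.5 FPKM at 1 hr, and it reached 251 FPKM at 9 hr, a further log2 difference of 1.09 ± 0.16 (limma adjusted p = 5.62e-07). The highest mean of the 17 times was 460 FPKM at 48 hr, and at 14 days the mean was 42.1 FPKM. In the sorted cells it stood at 979 ± 47.2 FPKM in X1 and 132 ± 5.95 in Xins (SD, n = 3), higher in X1 by 2.88 on the log2 scale (limma adjusted p = 6.42e-10). Irradiation lowered it in whole animals from 32.2 ± 5.55 to 1.63 ± 0.462 FPKM (SD, n = 3; log2 difference -3.66, limma adjusted p = 7.88e-06).

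The other 9 rising transcripts had log2 differences between 1.01 and 1.57. The first of them by size went from between 22.3 and 29.4 FPKM at 3 hr to between 74.4 and 89.4 FPKM at 6 hr, and the next from between 5.62 and 7.36 to between 15.4 and 23.3 FPKM. The most abundant, SMED30002262, had 907, 942, 822 and 817 FPKM at 3 hr and 1822, 1997, 1727 and 1669 FPKM at 6 hr, a log2 difference of 1.05 ± 0.12 (SE, limma adjusted p = 3.43e-09). In all 11 the 4 libraries at 6 hr lay above the 4 at 3 hr, as in 2.25% of tested transcripts; these libraries chose the 11, so the count describes them only. When each of the 8 libraries was left out in turn, 4 of the 11 calls held in all 8 fits, and each of the others was lost in 1 to 4 of them. Without replicates 1 and 5 at 3 hr, 9 of 11 were still called.

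The rise of these transcripts was then read in libraries that belong to neither time. At 9 hr against 1 hr, 10 of the 11 were called higher, where 0.803% of tested transcripts were. At 12 hr against 0 hr, 10 of the 11 were called higher, where 1.12% were. The median log2 difference of the 11 was 2.25 in the first comparison and 2.40 in the second, against 0.03 and 0.08 over all tested transcripts. The exception in both was SMED30002262, at 0.83 ± 0.12 (SE) for 9 hr against 1 hr and 0.16 for 12 hr against 0 hr. Apart from 3 and 6 hr, 8 of the 11 had their highest mean at 9 hr, 2 at 12 hr and 1 at 48 hr. The 11 did not start together: 3 of them were already called higher at 3 hr against 0 hr, where 0.379% were, with differences of 2.72, 2.84 and 3.50, none was lower (0.741% of tested transcripts), and the other 8 had differences between 0.13 and 0.83. From 6 to 9 hr, 1 of the 11 was called higher, SMED30033583 (4.07% of tested transcripts), and none lower (0.00407%). These last comparisons share the 3 hr or the 6 hr libraries with the step itself and are given side by side only.

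**Figure D2:**
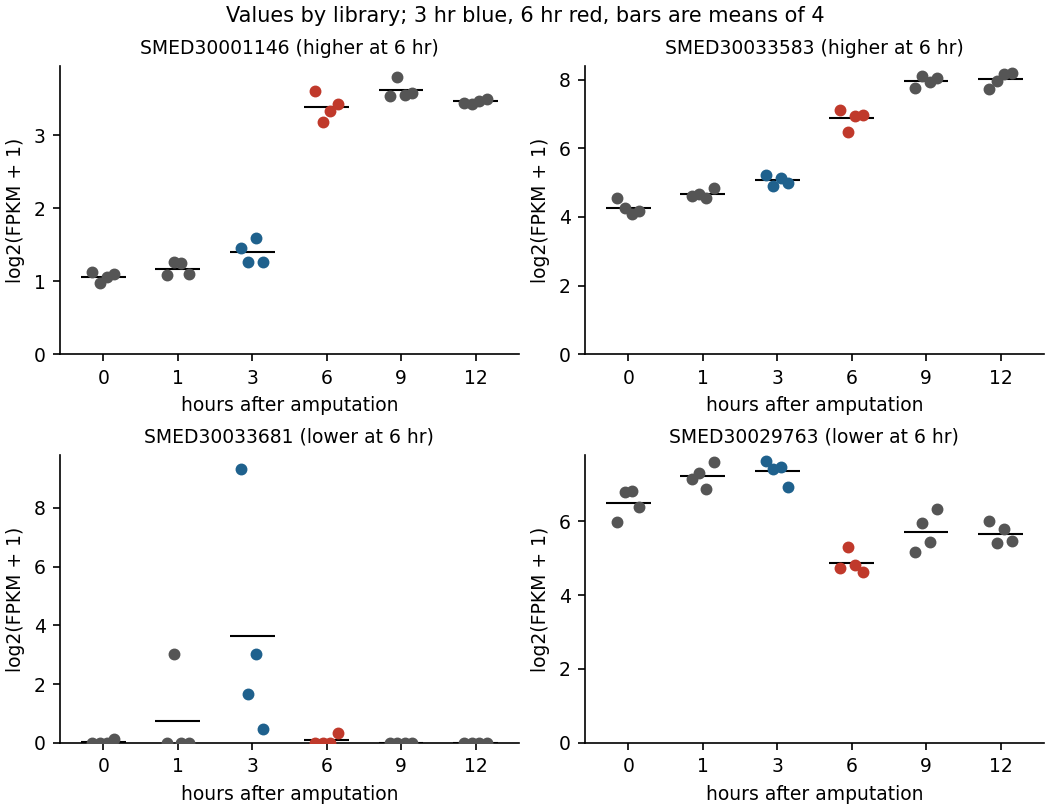
Level of 4 transcripts at 6 times after amputation, as log2(FPKM + 1). Each point is 1 library, 3 hr in blue and 6 hr in red, and bars are means of 4 libraries. In the lower left panel 1 library at 3 hr sits at 643 FPKM and the other 3 at 7.13 FPKM or less.

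The 18 falling transcripts were of different kinds. For 11 of them replicate 1 at 3 hr did not stand more than 10 times above every other 3 hr library, and for 7 it did. The 11 were not all spread evenly over the 3 hr libraries. SMED30010523, 1 of the 11, had 9.79, 12.5, 29.6 and 8.96 FPKM at 3 hr, highest in replicate 5. Without that library its log2 difference was -0.65 and it was not called. Among the first kind the largest fall was that of SMED30029763. Its levels were 199, 171, 175 and 120 FPKM at 3 hr and 25.7, 38.1, 27.01 and 23.7 FPKM at 6 hr, without overlap, a log2 difference of -2.50 ± 0.19 (SE, limma adjusted p = 1.1e-14). The values came from 1581 to 2466 reads at 3 hr and from 318 to 505 reads at 6 hr. This transcript had been rising before the fall, from a mean of 91.6 FPKM at 0 hr and 151 at 1 hr. After it the level climbed back to 54.3 FPKM at 9 hr and 108 FPKM at 24 hr, and means of 5 days and later were between 268 and 327 FPKM. At 9 hr against 1 hr it was lower by a log2 difference of -1.51 ± 0.19 (SE, limma adjusted p = 5.71e-09). Its mean was 24.3 FPKM in X1, 559 in X2 and 323 in Xins cells, and it was 183 FPKM in untreated and 170 FPKM in irradiated animals.

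SMED30019524 fell by 2.44 on the log2 scale, from 36.4, 22.1, 33.8 and 18.4 FPKM to 0.899, 6.09, 2.76 and 12.1 FPKM, with an SE of 0.75 (limma adjusted p = 0.043). Its libraries spread widely at other times, from 0.70 to 37.8 FPKM at 9 hr and from 2.18 to 76.9 FPKM at 12 hr. This call held in 1 of the 8 fits that left out a library. The other 9 of the kind had log2 differences of -1.01 to -1.94. The first of these 9 by size went from between 6.64 and 16.3 FPKM to between 1.05 and 5.51 FPKM, and the next from between 12.7 and 40.7 to between 4.88 and 9.81 FPKM. For all 11 the groups did not overlap, as for 8.66% of tested transcripts in this direction, which again describes transcripts chosen in these libraries. Of the 11 calls, 4 held whichever of the 8 libraries was left out, 9 held without replicate 1 at 3 hr and 4 without replicate 5. Without both, 2 of the 11 were called, SMED30029763 at -2.31 and one at -1.09, and all 11 kept a difference below 0.

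The remaining 7 falling transcripts were high in replicate 1 at 3 hr, at 206 to 2020 FPKM and 2001 to 23110 reads. Among them is SMED30033681, with 643, 2.16, 7.13 and 0.396 FPKM at 3 hr and 0, 0, 0 and 0.247 FPKM at 6 hr, a log2 difference of -3.54 ± 0.72 (SE, limma adjusted p = 0.000841). One library at 3 hr thus carried nearly all of the difference in mean FPKM, 163 against 0.0618. On the log2 scale its part was smaller, with -1.64 left without it. Replicate 5 at 3 hr held 0.989% to 1.84% of the replicate 1 value, and replicate 3 at 1 hr held 1.10% to 1.71% of it. Replicate 2 at 3 hr held 0.264% to 0.636%. In the other 64 libraries of the time course the highest value of any of the 7 was 5.12 FPKM, and in the sorted cells and whole animals it was 12.98 FPKM. Without replicate 1 at 3 hr, 3 of the 7 were still called, SMED30033681 at -1.64 (limma adjusted p = 0.00376). Without replicates 1 and 5, none of the 7 was called, and 3 of them no longer entered the test. In a limma voom fit on recovered reads none of the 7 was called, with an adjusted p of 0.178 for SMED30033681 and 0.144 to 0.337 over the 7. What gave replicate 1 these reads was not tested.

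**Figure D3:**
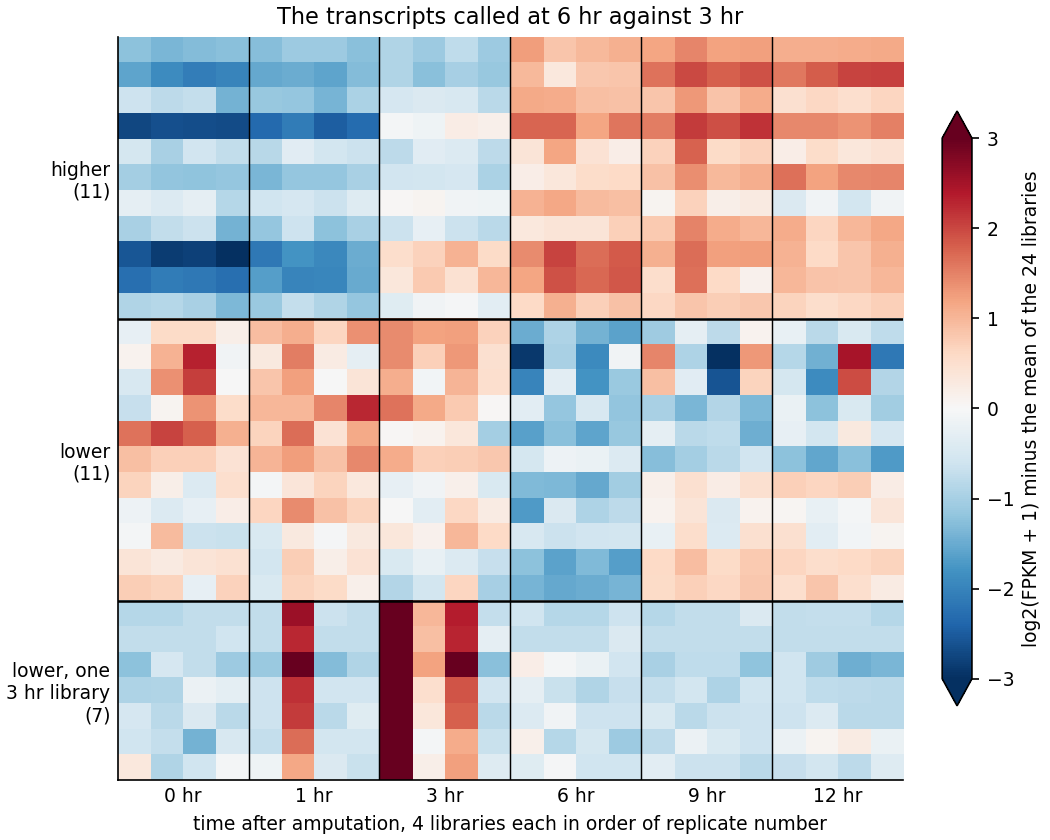
The 29 transcripts called between 3 and 6 hr (rows) in the 24 libraries from 0 to 12 hr (columns, 4 per time in order of replicate number). Colour gives log2(FPKM + 1) minus the row's mean over the 24 libraries, from blue (lower) to red (higher), and values beyond 3 in either direction have the end colours. The 11 upper rows are higher at 6 hr than at 3 hr, 1 of them back below its 3 hr mean at 12 hr, and the 7 lower rows are high in the first 3 hr library.

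The falling transcripts were read in the same libraries of other times. At 9 hr against 1 hr, 4 of 18 were called lower, where 0.399% of tested transcripts were, and at 12 hr against 0 hr 3 of 18, where 0.456% were. None was called higher in either. Apart from 3 and 6 hr, 8 of the 18 had their highest mean at 1 hr, 7 at 60 hr or later, and 1 each at 0, 9 and 12 hr. Except for SMED30007697, SMED30019172 and SMED30014441, the 8 were among the transcripts led by replicate 1 at 3 hr. Their 1 hr means came mainly from replicate 3 at 1 hr, as for SMED30033681 with 0, 7.10, 0 and 0 FPKM. From 6 to 9 hr 3 of the 18 were called higher and none lower, where 4.07% and 0.00407% of tested transcripts were. This step shares the 6 hr libraries in which the falls were called, so it is given side by side only. One of the 3, higher by 1.64 at 9 hr, had 2.01 to 3.59 FPKM at 3 hr and 0.430 to 1.01 FPKM at 6 hr. Its 6 hr values came from 3 to 7 reads. Another, higher by 2.18, had 2.10 to 3.25 and then 0.591 to 1.12 FPKM, the 6 hr values from 3 to 5 reads. The last, SMED30010523, higher by 2.14, had 8.96 to 29.6 and then 5.78 to 6.54 FPKM, with the 29.6 in replicate 5 at 3 hr.

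Beside these few large changes, most transcripts lay slightly lower at 6 hr in the FPKM as deposited. With median-ratio scaling the median difference was -0.007, and at any size 820 transcripts were higher and 405 lower. The shares, levels and class medians that follow are as deposited. Of all tested transcripts, 72.6% had a difference below 0. Their median level was 3.74 FPKM at 3 hr and 3.35 FPKM at 6 hr, between 4.05 at 0 hr and 4.22 at 9 hr. The median difference was -0.10 for transcripts with a mean under 1 FPKM over the time course, -0.16 for those with a mean of 1 to 3 FPKM, -0.11 for 3 to 10, -0.08 for 10 to 30, -0.04 for 30 to 100, -0.05 for 100 to 1000 and 0.04 for the 78 at 1000 FPKM or more. By transcript length the medians were between -0.12, under 500 bases, and -0.08. The number of transcripts at 1 FPKM or more was 16393, 16862, 18741 and 16684 at 3 hr and 15956, 16200, 16060 and 16329 at 6 hr. Every 6 hr library held fewer than every 3 hr library, and the means were 17170.0 ± 1065 and 16136 ± 163 (SD, n = 4; exact permutation test, two-sided p = 0.0286, the smallest it can give). The 4 at 6 hr were the lowest of the 68 regeneration libraries. The libraries at 0 hr held 18135 to 19121 and those at 9 hr 18962 to 19534. Without replicate 5 at 3 hr the difference was -510.1 transcripts in place of -1033.8, with p = 0.0286 in the exact permutation test, and without any 1 of the 4 libraries at 6 hr the difference did not pass (p = 0.0857 to 0.114 in the same test). Cuts at 0.5 FPKM (-1405.5) and 5 FPKM (-375.2) and median-ratio scaling (-768.2) each gave p = 0.0286 in the exact permutation test. Counting transcripts with 10 or more reads instead gave -907.8 with p = 0.171 in the exact permutation test.

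**Figure D4:**
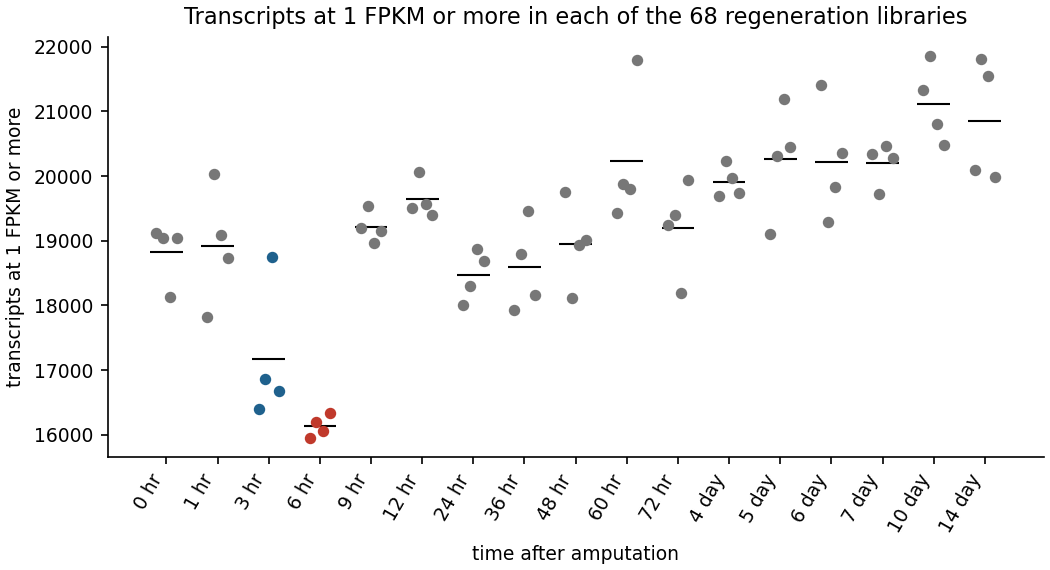
Number of transcripts at 1 FPKM or more in each of the 68 regeneration libraries (points), by time after amputation, with the mean of 4 as a bar and the vertical axis starting above 0. The 4 libraries at 6 hr lie between 15956 and 16329, and the 4 at 3 hr between 16393 and 18741.

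The share of the total held by the most abundant transcripts was compared next. The 10 most abundant held 22.9% ± 0.636 of all FPKM at 3 hr and 24.0% ± 0.196 at 6 hr (SD, n = 4; exact permutation test, two-sided p = 0.0571), a difference of 1.06 percentage points that did not pass. One abundant transcript just under the size threshold, chosen after its values were seen, went from between 492 and 566 FPKM at 3 hr to between 966 and 1145 FPKM at 6 hr, a log2 difference of 0.98, and was back at a mean of 656 FPKM at 9 hr.

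Whether the step from 3 to 6 hr differed from the step from 0 to 3 hr was tested as the difference between the steps. It was positive for 56 transcripts (0.228%) and negative for 152 (0.619%), and with median-ratio scaling for 95 and 149. Of the 152, 135 had steps of opposite sign, with a median of 0.98 from 0 to 3 hr and -0.47 from 3 to 6 hr. Both steps use the 3 hr libraries, with opposite sign, so choosing by their difference favours such transcripts. The count describes the chosen transcripts only, and the share over all tested transcripts is not given. Among the 152, the first by size to meet the naming rule and not named above was SMED30029780. Its levels were 16.0, 7.97, 9.01 and 6.15 FPKM at 0 hr, 192, 240, 225 and 196 FPKM at 3 hr and 69.2, 122, 102 and 121 FPKM at 6 hr, with no overlap between any of these times. The change of step was -5.45 ± 0.76 (SE, limma adjusted p = 9.57e-07), though the fall from 3 to 6 hr, -1.07 ± 0.44, did not pass by itself (limma adjusted p = 0.161). It was highest at 1 hr, at a mean of 247 FPKM, and fell away through 61.1 FPKM at 9 hr and 28.7 FPKM at 12 hr.

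SMED30022030 had nearly the same course at lower levels. Its means were 4.24 FPKM at 0 hr, 95.1 at 1 hr, 85.1 at 3 hr, 41.0 at 6 hr and 10.7 at 12 hr, with a change of step of -5.15 ± 0.78 (SE, limma adjusted p = 5.78e-06). Both stood higher in the sorted X cells than in whole animals: SMED30029780 at 328, 361 and 451 FPKM in X1, X2 and Xins against 4.00 FPKM in untreated animals, and SMED30022030 at 120, 133 and 176 FPKM against 1.37 FPKM. In PIWI-1 high, low and negative cells SMED30029780 was at 34.6, 63.1 and 116 FPKM and SMED30022030 at 5.05, 9.17 and 18.9 FPKM. Levels in the sorts and in whole animals were not compared by a test.

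In the other direction, 45 of the 56 transcripts had steps of opposite sign, with a median of -1.16 from 0 to 3 hr and 0.26 from 3 to 6 hr. This count too is favoured by the choice, since both steps use the 3 hr libraries. SMED30011310 went from 7.10, 9.74, 6.82 and 7.82 FPKM at 0 hr to 2.42, 1.41, 2.60 and 2.65 FPKM at 3 hr and 3.38, 3.69, 3.21 and 2.74 FPKM at 6 hr. The 6 hr libraries lay just above the 3 hr ones and below the 0 hr ones. The change of step was 1.84 ± 0.34 (SE, limma adjusted p = 0.000353), with 11 to 28 reads per library at 3 and 6 hr. Its step from 3 to 6 hr by itself, 0.39 ± 0.20, did not pass (limma adjusted p = 0.287). SMED30027324 went from a mean of 11.5 FPKM at 0 hr to 5.06, 5.28, 5.99 and 5.61 FPKM at 3 hr and 8.05, 6.64, 8.52 and 9.22 FPKM at 6 hr, a change of step of 1.43 ± 0.25 (SE, limma adjusted p = 0.000117). Its step from 3 to 6 hr, 0.48 ± 0.14, passed the adjusted p in limma (0.0362) but not the size threshold. The positive count moved with single libraries, to 31 without replicate 1 at 3 hr and 110 without replicate 5.

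The step from 6 to 9 hr differed from the step from 3 to 6 hr in many more transcripts. The change of step was positive for 1952 (7.95%) and negative for 19 (0.0774%), and with median-ratio scaling for 1590 and 109. Of the 1952, 1939 had steps of opposite sign, and their median level went from 1.18 FPKM at 3 hr to 0.613 at 6 hr and 2.25 at 9 hr. The 6 hr libraries enter both steps with opposite sign, so this choice favours opposite signs and a low 6 hr level. These values describe the chosen transcripts only. The 1952 were mostly low transcripts. Of those with a mean of 1 to 3 FPKM over the time course 20.4% were positive, and of those at 30 to 100 FPKM 0.396%. The count of transcripts at 1 FPKM or more per library was lowest at 6 hr. The number of positive changes was 1284 without replicate 5 at 3 hr and 567 with a filter at 5 FPKM. The part of detection in it was not tested.

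**Figure D5:**
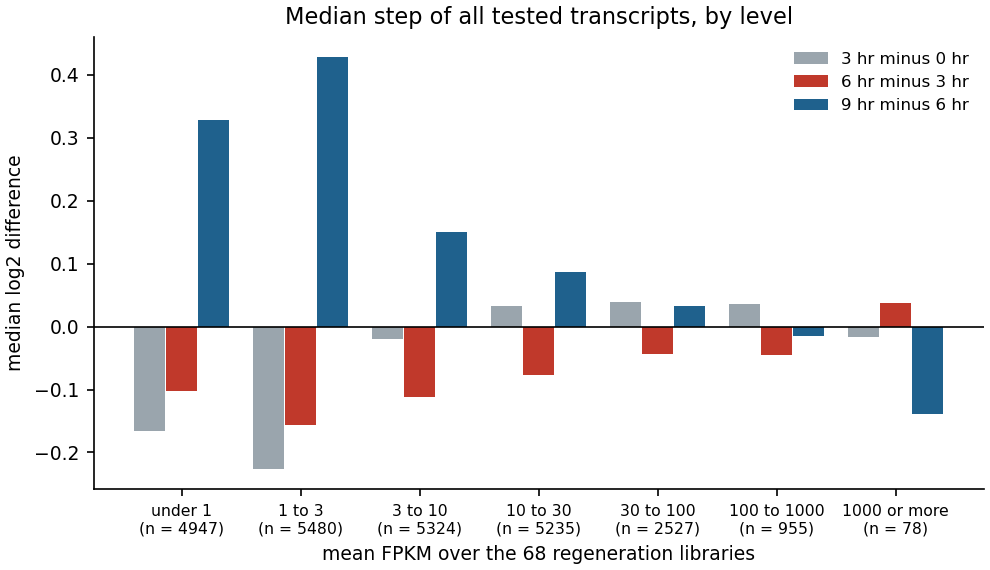
Median log2 difference of all tested transcripts for the steps from 0 to 3 hr (grey), 3 to 6 hr (red) and 6 to 9 hr (blue), by the mean level over the 68 regeneration libraries, with the number of transcripts under each class. Values are as deposited, without median-ratio scaling. Below 10 FPKM the step from 3 to 6 hr is negative and the step from 6 to 9 hr positive, and at 1000 FPKM or more the signs are the other way round, 0.04 and -0.14.

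By size of the positive change the first to meet the naming rule was SMED30019524, described above, at 3.61 ± 1.30 (SE, limma adjusted p = 0.0443). That call was lost in 5 of the 8 fits that left out a library and in all 8 other settings tried that give a value for it. SMED30025366 followed. Its levels were 2.28, 4.33, 9.35 and 3.72 FPKM at 3 hr, 1.52, 1.51, 1.95 and 1.43 FPKM at 6 hr and 11.9, 13.8, 11.5 and 13.3 FPKM at 9 hr. The 6 hr libraries were the lowest of the 3 times and the 9 hr libraries the highest, with a change of step of 3.45 ± 0.64 (SE, limma adjusted p = 0.00018), and the mean at 0 hr had been 11.2 FPKM. The fall from 3 to 6 hr by itself, -1.06 ± 0.37, did not pass (limma adjusted p = 0.0874).

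Of the 19 transcripts with a negative change, 16 had steps of opposite sign, with a median over the 19 of 0.90 from 3 to 6 hr and -0.41 from 6 to 9 hr. That count is again favoured by the choice, since both steps use the 6 hr libraries. SMED30027102 had 8.95, 12.6, 9.74 and 14.7 FPKM at 3 hr, 16.8, 28.7, 24.9 and 27.3 FPKM at 6 hr and 10.2, 23.7, 10.9 and 7.55 FPKM at 9 hr. The 6 hr libraries lay above the 3 hr libraries but overlapped those at 9 hr, and the change of step was -1.96 ± 0.41 (SE, limma adjusted p = 0.000696). Its mean at 0 hr was 0.719 FPKM. SMED30002262, the abundant rising transcript, had a mean of 872 FPKM at 3 hr, 1804 at 6 hr and 1113 at 9 hr, and its 9 hr libraries, at 937 to 1436 FPKM, lay below all 4 at 6 hr. The change of step was -1.76 ± 0.21 (SE, limma adjusted p = 4.23e-08), and the fall from 6 to 9 hr, -0.71 ± 0.12, passed the adjusted p in limma (7.49e-06) but not the size threshold.

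Transcripts of the sorted cell populations were then followed over this step. Lists were made of transcripts called higher in one sorted population than in both others, and of those that irradiation lowered or raised, so that their members were chosen in libraries of other experiments. The median log2 difference between 6 and 3 hr was -0.10 for the 655 tested members of the X1 list, -0.19 for 161 of the X2 list and -0.05 for 2664 of the Xins list, against -0.09 over all tested transcripts. It was -0.11 for the PIWI-1 high list (358), -0.02 for the low list (172) and -0.06 for the negative list (2846). For the irradiation-lowered list (341) it was -0.08 and for the irradiation-raised list (32) 0.02. At most 5 members of any list were called, 3 higher and 2 lower in the Xins list, and 3 members of the X1 list were called higher and none lower, where 0.0448% and 0.0733% of all tested transcripts were. At any size, the share of members that passed ran over the 8 lists from 0.581% to 3.12% higher and from 0.621% to 5.87% lower, beside 1.29% and 3.63% of all tested transcripts. With median-ratio scaling the medians moved to between -0.005 and 0.162.

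Looked up the other way, the rising transcripts were called on both sides of the sorts. For the falling ones the counts were small, and they are given beside the shares of all tested transcripts. Of the 11 rising transcripts, 10 were tested in X1 against Xins, with 3 called higher in X1 and 6 lower, where 8.41% and 39.9% of tested transcripts were. In PIWI-1 high against negative cells 8 were tested, with 4 higher and 2 lower (19.7% and 27.6% of all tested). The sorts differed for SMED30004057, called lower in X1 (log2 difference -5.22) and higher in PIWI-1 high cells (1.62). SMED30001146 was among those lower in X1, at 0.0946 ± 0.0642 FPKM against 1.45 ± 0.0642 in Xins (SD, n = 3; log2 difference -1.16, limma adjusted p = 2.57e-06), so the 2 transcripts that rose most lay on opposite sides of that sort. Of the 18 falling transcripts 11 were tested in X1 against Xins, with none higher and 6 lower, beside 8.41% and 39.9% of all tested. In PIWI-1 high against negative 9 were tested, with none higher and 4 lower, beside 19.7% and 27.6%. Counts this small cannot set the falling transcripts apart from all tested transcripts. After irradiation 1 of 10 tested rising transcripts, SMED30033583, was called lower and none higher, where 1.74% and 0.168% of tested transcripts were. None of 12 tested falling transcripts was called.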

How the data were processed

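The submitters sequenced polyA RNA, and the FPKM values used here are as deposited by the authors, 1 column per library and 36035 transcripts per table. The submitters' processing notes list Bowtie2 2.2.9 and edgeR but not what each did. The reference build, the annotation and the counting method are not given in the sources used here. Reads shared between near-identical or overlapping transcripts could not be assessed, and the labels name both a stranded kit and one without that word.

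Libraries were grouped by their titles. Differences were computed with limma 3.58.1 in R 4.3.3 (lmFit, eBayes with trend, two-sided, Benjamini-Hochberg adjustment over all tested transcripts) on log2(FPKM + 1). All 68 regeneration libraries shared 1 fit with 51 residual degrees of freedom. A transcript was tested with at least 1 FPKM in 4 libraries (3 in the sorts of X cells and in whole animals), and a call needed both an adjusted p under 0.05 and a log2 size of 1 or more. For each comparison the text names the first 2 transcripts in each direction by size, with a mean of at least 5 FPKM at the highest time and no overlap between the 3 hr and 6 hr libraries. The members and lists were chosen with earlier results of these data known. Single values per library were compared by exact permutation tests.

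Low FPKM values are whole multiples of the worth of 1 read. A length was recovered for 34812 transcripts and a total for each library, and all values with a length then came out whole within 0.05 of a read. Lengths were chosen to make the values whole, so this is not a separate check of them. Recovered reads served for depth, for transcript length and for 1 alternative fit (limma voom). Totals of the 8 libraries differ by less than a factor of 2, and read counts cover counting error only. The fit and the recovery were tested on simulated data. The alternatives tried were another pseudocount, filters, scaling, the replicate number as a block, library weights, recovered reads and each library left out.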

Additional observations from a re-analysis of the deposited data

Results flagged for a closer look

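Among the 28 groups of 4 libraries examined for the named transcripts, 3 had a library whose gap to its nearest neighbour took a share of the group's range above Dixon's critical value, and chance alone gives such a gap in about 1 in 20 groups. For SMED30033681 at 3 hr the gap was 0.99 of the range, with replicate 1 at 643 FPKM and the other libraries at 7.13 FPKM or less. For the same transcript at 6 hr it was 1, with replicate 6 at 0.247 FPKM, which is 2 reads, and the other libraries at 0. With the others at 0 the share is 1 whatever that value, so the rate of 1 in 20 does not hold there. For SMED30025366 at 6 hr it was 0.832, with replicate 5 at 1.95 FPKM and the others between 1.43 and 1.52 FPKM.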

How the results depend on the processing

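A value that moved is given under the setting that moved it, and the cause was not tested. With a pseudocount of 0.1 FPKM, which enlarges changes of low transcripts, 42 transcripts were called higher at 6 hr and 437 lower, 11 and 15 of them shared with the calls reported above, and 1627 were lower at any size. The same setting gave 164 positive changes of step at 3 hr and 3839 positive and 32 negative at 6 hr. Its rising transcripts were called higher 25 times at 9 hr against 1 hr and 23 times at 12 hr against 0 hr, its falling ones lower 25 and 8 times. Its called transcripts were called in the X cell sorts 59 times, in the PIWI-1 sorts 48 times and after irradiation 11 times, and the most called in any list was 23. On recovered reads with limma voom the calls were 25 higher and 166 lower, 11 and 8 of them shared, and negative changes of step at 6 hr were 36. Its rising transcripts were called 19 and 18 times at those later times and its falling ones 24 and 14 times. Calls in the X sorts, PIWI-1 sorts and irradiation were then 34, 33 and 4, and the most in a list was 14. Median-ratio scaling gave 25 calls higher, 820 higher and 405 lower at any size, a median of -0.007, 95 positive changes of step at 3 hr and 109 negative at 6 hr. With it 20 and 19 rising transcripts were called at the later times, 21 called transcripts in the PIWI-1 sorts and 3 after irradiation. List medians were -0.005 (X1), 0.000 (X2), 0.043 (Xins), -0.004 (PIWI-1 high), 0.080 (low), 0.045 (negative) and 0.052 (irradiation-lowered). With the 8 libraries alone 16573 transcripts were tested, and 14 were called higher and 17 lower, 11 and 9 of them shared. In that fit 187 were higher and 272 lower at any size, its falling transcripts were called lower 9 and 5 times, and calls in the PIWI-1 sorts and irradiation were 16 and 2. That fit holds no other time and so gave no change of step. Library weights gave 112 positive changes of step at 3 hr, 7 falling transcripts lower at 9 hr against 1 hr and 3 calls after irradiation. A filter at 5 FPKM gave 567 positive changes of step at 6 hr, 9 calls in the X sorts, 2 after irradiation and at most 3 in a list. The fall in detected transcripts did not pass when counted at 10 reads (-907.8, exact permutation p = 0.171), a setting chosen after seeing the data. The share of the single most abundant transcript reversed the top 10 share, at -0.3775 percentage points (exact permutation p = 0.771).

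Leaving out replicates 1 and 5 at 3 hr together, also chosen after seeing the data, gave 10 calls lower, 360 lower at any size, 34 positive and 86 negative changes of step at 3 hr, 1 falling transcript lower at 12 hr against 0 hr, 4 calls after irradiation, and -636.8 detected transcripts (exact permutation p = 0.0667, the smallest it allows).

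Leaving out each of the 8 libraries in turn gave 7 to 16 calls higher, 7 without replicate 6 at 3 hr or replicate 4 at 6 hr, and 14 to 29 lower, 29 without replicate 1 at 3 hr. At any size it gave 229 to 296 higher and 431 to 1046 lower, 431 without replicate 5 at 3 hr and 497 without replicate 5 at 6 hr. Changes of step at 3 hr were 31 to 110 positive and 117 to 153 negative, those at 6 hr 1284 to 2199 positive and 16 to 29 negative, 29 without replicate 1 at 6 hr. Rising transcripts were called 6 to 15 times at 9 hr against 1 hr and 6 to 13 times at 12 hr against 0 hr, the 6 without replicate 6 at 3 hr, where 7 were called rising. Falling ones were called 4 to 6 and 2 to 4 times. The median of all was -0.116 to -0.065. List medians were -0.133 to -0.068 (X1), -0.318 to -0.094 (X2), -0.075 to -0.040 (Xins), -0.139 to -0.066 (PIWI-1 high), -0.063 to 0.039 (low), -0.080 to -0.037 (negative), -0.122 to -0.038 (irradiation-lowered) and -0.088 to 0.059 (irradiation-raised). The most called in a list was 3 to 6, and calls were 10 to 18 in the X sorts, 7 to 12 in the PIWI-1 sorts and 1 to 3 after irradiation. Detected transcripts differed by -1292.8 to -510.1, without passing when any of the 4 libraries at 6 hr was left out (exact permutation p = 0.0857 to 0.114). The top 10 share differed by 0.838 to 1.35 percentage points and passed without replicate 1 at 3 hr.

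The replicate numbers 1, 5 and 6 occur at both times, but same-numbered libraries did not deviate together: the correlations of their deviations were 0.089, -0.043 and -0.012, and 1 of the 3 libraries correlated best with its own number. With the replicate number as a block there were 13 calls higher and 24 lower, including all 11 and 18 of the fit without it, and 2 called transcripts were called after irradiation in place of 1. In the comparison each was named for, 10 of the 12 named transcripts kept their direction and call in every setting that gave a value, SMED30033681 lost its call in the fit on recovered reads, and SMED30019524 lost its change of step at 6 hr as described above. For the step from 3 to 6 hr itself, SMED30027102 kept its call in 4 of the 8 fits that left out a library and SMED30002262 in 7. At 1 read per kb worth 0.0585 to 0.0716 FPKM, changes of transcripts near 1 FPKM rest on few reads.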
